A study of Mus musculus with 21 samples.

Results

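Regions of chromatin that were open in the early innate lymphoid progenitor (EILP) but not in the stage before or after it numbered 9871 of 102313. They were found by merging DNase I hypersensitive site (DHS) peaks of 3 stages on chromosomes 1 to 19 and X wherever peaks shared at least 1 bp. A region was kept if it held a peak of the EILP list and none of the lists of the all-lymphoid progenitor (ALP) and the innate lymphoid cell precursor (ILCP). The EILP-only regions made up 14.3% (95% Wilson interval 14.1 to 14.6) of the 68949 regions with an EILP peak, covered 1.45 Mb in all and each held 1 peak. The regions were thus chosen by the DNase-seq peak calls themselves. The DHS heights, fold enrichments and distances to DHS below are therefore a description and were not tested in their own right.

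Innate lymphoid cells are lymphocytes that act without rearranged antigen receptors. They develop in the bone marrow from progenitors that also give rise to T and B cells, and TCF1, the HMG-box DNA-binding protein encoded by Tcf7, is needed in mice for their early development. A DHS is a stretch of DNA that the enzyme DNase I can cut, typically a promoter or an enhancer kept clear of nucleosomes by bound proteins.

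The groups were DNase-seq of EILP, ALP and ILCP (3 libraries of 300 sorted cells each), and CUT&RUN of EILP with 6 libraries titled TCF1 and 4 titled IgG (500 cells each). In CUT&RUN an antibody brings a nuclease to the DNA beside a bound protein. A further 2 CUT&RUN libraries carried TCF1 in the title and the IgG track in the description and were put in no group. The antibody label names TCF1 on every CUT&RUN library, those titled IgG included, and some of the libraries are technical repeats. All cells came from bone marrow of C57BL/6 mice and were sorted as lineage-negative, Kit+ and 2B4+ cells. EILP were a4b7+ Tcf7+ Thy1-, ALP were a4b7- with high Flt3 and IL-7Ra, and ILCP were a4b7+ Tcf7+ with Thy1 and IL-7Ra. The genotype label was Tcf7EGFPnull/+ for EILP and Tcf7EGFP/+ for ALP and ILCP, so every cell carried a reporter allele of Tcf7 and the EILP label alone names a null allele. The headers of the 3 DHS lists, in contrast, name their pooled tags WT, and the sources used here do not settle which holds for EILP. Being open at EILP only and carrying the null allele cannot be told apart if those labels hold. Ages and the number of mice were not given in the sources used here.

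Every list came from a single pooled tag file, which leaves no replicate error for any value. Intervals and p-values cover the counting of regions alone, treat regions as independent and do not measure the spread between libraries or mice. Pooled depth after filtering was 11236009 tags for EILP, 12420429 for ALP and 12681410 for ILCP, against 2418839 for TCF1 and 2919489 for its control. Positions are on mouse build mm9. Regions are named by position, because neither sequence nor genes of mm9 were used, and for the same reason the sorted cells could not be checked against marker genes and no sequence is shown.

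The EILP-only regions were weak DHS. Their median height, the number of extended tags over the summit, was 8 (quartiles 7 and 10), against 14 (10 and 21) in the other 59078 EILP regions. Median fold enrichment, the authors' ratio of tags to the local background, was 5.00 (quartiles 4.37 and 5.71) in EILP-only regions and 7.50 (5.65 and 10.2) in the others. The peaks were also short, with a median length of 136 bp against 208 bp, and 22.4% of them had the shortest length in the list, 100 bp. Of the EILP-only regions, 5230 (53.0%) had a height of 5 to 8 tags.

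Those heights lay close to the lowest that any of the lists recorded. Where the local background was between 0.9 and 1 tag, the lowest recorded height was 6 tags in the EILP list and likewise 6 tags in the ALP and ILCP lists. At a background of up to 0.7 tags it was 5 in all 3 lists, and at just under 2 tags it was 8. An EILP-only region of median height therefore stood 2 or 3 tags above the lowest call, and absence from another list means that no peak was called there, not that no tags were found.

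The share of EILP regions that were EILP-only was smaller the stronger the peak. It was 45.0% (42.8 to 47.1) for a fold enrichment of up to 4, 36.8% (36.0 to 37.7) between 4 and 5, and 12.9% (12.3 to 13.6) between 6 and 7. Between 9 and 10 it was 1.25% (0.978 to 1.60), and over 10 it was 0.182% (0.126 to 0.264), or 28 of 15350 regions. None of the 6561 regions with a fold enrichment over 13 was EILP-only. The strongest EILP-only region held rank 6859 among EILP regions by fold enrichment, below 9.95% of them.

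**Figure D1:**
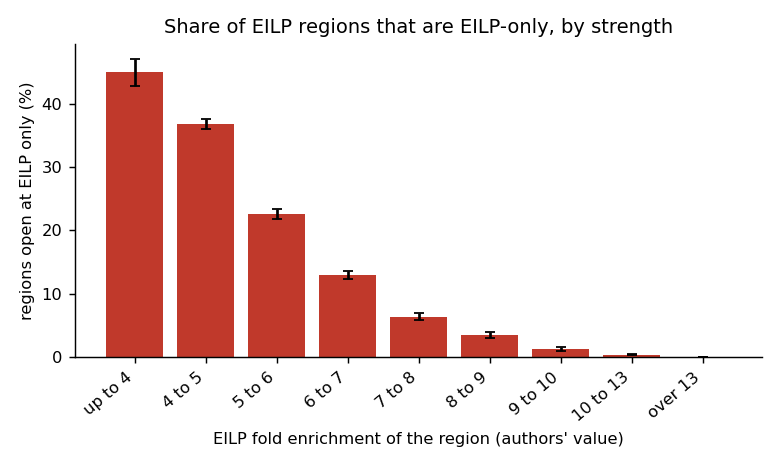
Share of regions with an EILP peak that were open at EILP only (y axis, percent, with 95% Wilson intervals), by the EILP fold enrichment of the region (x axis). The share is 45.0% for the weakest bin and 0 for the 6561 regions over 13.

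The mirror-image classes held more strong regions. Of the 9871 EILP-only regions, 28 (0.284%) had a fold enrichment over 10 in their own list, against 144 of 11601 ALP-only regions (1.24%) and 295 of 17583 ILCP-only regions (1.68%). The highest fold enrichment was 12.8 for EILP-only, 16.3 for ALP-only and 16.2 for ILCP-only regions. EILP-only regions were also the smallest share of their list, 14.3%, against 17.7% for ALP-only and 24.7% for ILCP-only regions. These numbers come from the lists that defined the classes. EILP also had the fewest tags of the 3 stages. It is the middle stage too, so EILP-only regions lacked a peak in both neighbouring stages. ALP-only and ILCP-only regions lacked one in a neighbouring and in a more distant stage. The part of depth and of stage order in these shares was not tested.

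Ranked by fold enrichment, the first 10 EILP-only regions were wide for their class, at 182 to 383 bp against a median of 136 bp, and had backgrounds on both sides of the class median of 0.74 tags. The strongest was chr6:37234989-37235235, with 22 tags over a background of 0.79 tags and a fold enrichment of 12.8. Its nearest ALP peak was 14.5 kb away and its nearest ILCP peak 48.7 kb away. The region chr5:145859123-145859505 also had 22 tags, with a fold enrichment of 12.4, and its nearest ALP and ILCP peaks were 14.3 kb away. The third, chr6:114956144-114956474, had 24 tags and a fold enrichment of 12.1, and a region open in all 3 stages lay 1.40 kb from it. All 3 were well above the lowest calls, since at backgrounds of up to 1.5 tags the ALP and ILCP lists recorded peaks from 5 to 7 tags upwards.

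Next came 2 regions with the same values, chr17:43337879-43338070 and chr9:63040726-63040937, each with 18 tags over the lowest background of the list and a fold enrichment of 11.9. The remaining 5 of the first 10 were chr13:47092799-47093087, chr1:10315976-10316157, chr14:69969047-69969268, chr12:5214824-5215017 and chr4:152889649-152889873, with fold enrichments of 11.7, 11.5, 11.3, 11.3 and 11.2. The 10 lay on 9 chromosomes, had 17 to 24 tags and backgrounds of 0.601 to 1.07 tags, and 9 of them had no ALP or ILCP peak within 1 kb. The exception was the chromosome 1 region, whose nearest ILCP peak was 233 bp away. None of the 10 overlapped a TCF1 peak, and the closest TCF1 peak to any of them was 2.56 kb away.

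Ranking by height gave a different set, in which only chr6:114956144-114956474 was shared with the first 10 by fold enrichment. The highest pileup, 34 tags, was at chr11:3056984-3057173, where the local background was 14.7 tags and the fold enrichment 2.23. A peak of 27 tags at chr11:3074358-3074457 had a background of 9.12 tags and a fold enrichment of 2.77. Both lie in the first stretch of the chromosome in this build, and within 10 kb of the first of them another EILP peak reached 111 tags, against 43 tags for the highest ALP and 75 for the highest ILCP peak. Among EILP-only regions, 3 had a background over 5 tags, and the third was chr17:3080684-3080794 with 23 tags and a background of 5.33. These 3 had the most tags around them, not the strongest enrichment.

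Among the other regions high in tags were chr18:39156789-39157040, with 31 tags, a background of 3.38 and a fold enrichment of 7.31, and chr8:121946002-121946306, with 30 tags, a background of 3.59 and a fold enrichment of 6.75. The chromosome 8 region was the single one of the 10 with a TCF1 peak. Another was chr17:50320278-50320535, with 25 tags over 1.33 and a fold enrichment of 11.2, just below the first 10 on the other scale. The remaining 4 were chr11:74390621-74390850, chr12:114071780-114072035 and chr11:115050091-115050475, with 26, 25 and 25 tags, and chr7:29369029-29369304 with 24. Across all EILP-only regions height and fold enrichment rose together with Spearman's rho of 0.60 (n = 9871, a description only, since both share the tag count).

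**Figure D2:**
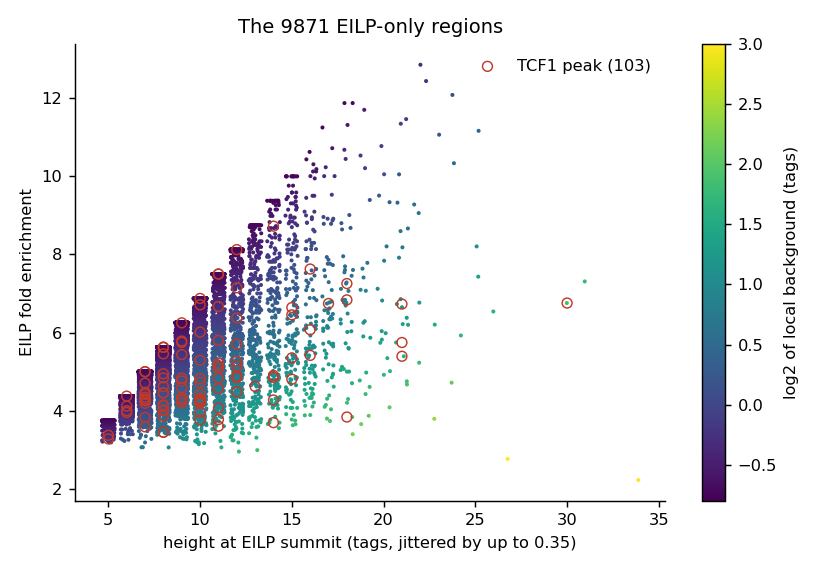
Height at the EILP summit (x axis, tags, points spread sideways by up to 0.35) and EILP fold enrichment (y axis) of the 9871 EILP-only regions, coloured by the log2 of the local background in tags, with red rings at the 103 that overlap a TCF1 peak. The first 10 by fold enrichment lie at 17 to 24 tags with backgrounds of 0.601 to 1.07 tags, and the highest point on the x axis, at 34 tags, has a fold enrichment of 2.23.

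Many EILP-only regions lay beside DHS of the other stages. An ALP or ILCP peak was found within 100 bp of 592 of them (6.00%), within 500 bp of 2001 (20.3%) and within 1 kb of 2869 (29.1%), while 7002 (70.9%) had none within 1 kb and 2047 (20.7%) none within 10 kb. The median distance was 4.80 kb to the nearest ALP peak, 4.44 kb to the nearest ILCP peak and 8.81 kb to the nearest region open in all 3 stages. A region open in all stages lay within 1 kb of 14.6% (13.9 to 15.3) of EILP-only, 14.2% (13.5 to 14.8) of ALP-only and 12.4% (11.9 to 12.9) of ILCP-only regions. With absence taken to mean no peak of the other 2 stages within 500 bp, 7870 of 9871 EILP-only regions stayed in their class. For the mirror-image classes it was 9388 of 11601 ALP-only and 14664 of 17583 ILCP-only regions, so such neighbours were not particular to EILP-only regions.

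None of the other classes of DHS stood out as the neighbour. The nearest region of another class was open in all 3 stages for 42.5% of EILP-only regions. Such regions made up 43.1% of all regions that were not EILP-only. For the classes of a single other stage the shares were 12.7% against 12.5% (ALP-only) and 19.4% against 19.02% (ILCP-only). For those shared between 2 stages they were 10.7% against 10.5% (ALP and EILP), 10.2% against 10.3% (EILP and ILCP) and 4.51% against 4.52% (ALP and ILCP). Each share of the neighbours was within 1 percentage point of the share of that class among all other regions.

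**Figure D3:**
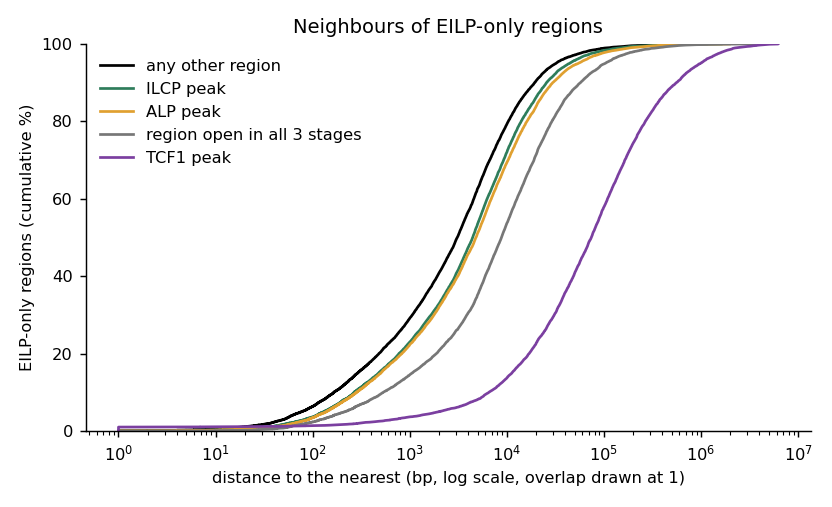
Cumulative share of the 9871 EILP-only regions (y axis, percent) by distance to the nearest region of another class ("any other region"), ILCP peak, ALP peak, region open in all 3 stages and TCF1 peak (x axis, bp, log scale). The curves for ALP and ILCP peaks nearly coincide, with medians of 4.80 and 4.44 kb, and the curve for TCF1 peaks lies far to the right, with a median of 74.1 kb.

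At the edge of the rule, single bases decided membership. The EILP peak at chr10:75027902-75028039, with 12 tags, counted as EILP-only although it adjoined an ALP peak, and chr10:79549204-79549332, with 9 tags, adjoined an ILCP peak. The others with a gap of 1 bp named here, chr13:101262104-101262275, chr15:84814568-84814689 and chr2:77892155-77892262, had 7, 12 and 7 tags. On the other side, the EILP peaks chr10:39133268-39133437, chr12:100564310-100564484, chr7:38967963-38968102 and chr8:23823566-23823674, with 10, 11, 10 and 8 tags, were kept out by 1 shared base each, and chr10:36694649-36694748, with 6 tags, by 2 bases. In all, 57 EILP-only regions had an ALP or ILCP peak within 10 bp, and 88 EILP peaks were kept out by an overlap of 10 bp or less. The weakest members by q-value, chr1:195272727-195272826, chr12:74155006-74155125 and chr19:42339285-42339414, each had 5 tags and a −log10 q of 1.31.

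The regions were spread along the genome. Of 2234 windows of 1 Mb with an EILP region, 1901 held at least 1 EILP-only region, with a median of 4 among those. The window with the most was on chromosome 2 from 167000001 to 168000000, where 23 of 113 EILP regions (20.4%, 14.0 to 28.7) were EILP-only, with heights of 6 to 15 tags. It was followed by chromosome 4 from 140000001 with 22 of 107 (20.6%, 14.0 to 29.2) and chromosome 9 from 121000001 with 21 of 90 (23.3%, 15.8 to 33.1). On chromosome 12 from 103000001 there were 19 of 78 (24.4%, 16.2 to 34.9), and on chromosome 4 from 134000001 there were 18 of 122 (14.8%, 9.54 to 22.1). These windows were ranked by that number, so a high count in them is no finding, and each was also rich in EILP regions of other classes. Their EILP-only members were ordinary in strength, with median fold enrichments of 4.90 to 5.58. Of the 103 EILP-only regions in these windows, 3 overlapped a TCF1 peak, beside a share of 1.04% among all EILP-only regions.

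TCF1 binding was not used to choose the regions, and it was rare in them. Of the 9871 EILP-only regions, 103 overlapped a TCF1 peak by at least 1 bp, or 1.04% (0.861 to 1.26), against 5.62% of all regions with an EILP peak and 4.16% of all regions. Regions open at EILP and in ILCP held one in 5.05% (4.63 to 5.51) of 9480 cases, regions open at all stages in 7.82% (7.56 to 8.09) of 39851, and regions open in ALP and EILP in 1.83% (1.58 to 2.11) of 9747. The 2 classes of EILP regions without an ILCP peak thus had the lower shares.

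Each of these differences passed Fisher's exact test, two-sided, with Benjamini-Hochberg adjustment over 5 comparisons. By this exact test, the odds ratio of EILP-only regions was 0.198 (0.160 to 0.246, adjusted p = 1.2e-63) against EILP and ILCP, 0.124 (0.102 to 0.151, adjusted p = 2.0e-183) against all stages and 0.567 (0.444 to 0.724, adjusted p = 7.3e-06) against ALP and EILP. Merging widened the regions of the shared classes alone. Their median width was 231 bp for ALP and EILP, 230 bp for EILP and ILCP and 291 bp for all stages. The EILP peaks in them had median lengths of 181, 167 and 229 bp. For EILP-only regions, each of 1 peak, both medians were 136 bp. With EILP peaks as units (n = 9871 EILP-only), compared within 25 strata of fold enrichment by length, the odds ratios were 0.262 (0.208 to 0.330) against EILP and ILCP and 0.307 (0.242 to 0.389) against all stages, while that against ALP and EILP was 0.759 (0.578 to 0.997, adjusted p = 0.063) and no longer passed.

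Against the other single-stage classes the differences were small. EILP-only regions held a TCF1 peak in 1.04% of cases, ALP-only regions in 0.750% (0.608 to 0.924) and ILCP-only regions in 1.34% (1.18 to 1.52), although TCF1 was measured in EILP alone. The odds ratio was 1.40 (1.05 to 1.86, adjusted p = 0.029) against ALP-only and 0.778 (0.617 to 0.983, adjusted p = 0.035) against ILCP-only regions in the same family of exact tests. Both calls depended on the settings. Cutting the lists to equal length gave 1.26 (0.955 to 1.67, adjusted p = 0.11 by the exact test) against ALP-only regions. Strata of fold enrichment by length gave 0.891 (0.701 to 1.13, adjusted p = 0.35 by the Mantel-Haenszel test, n = 9871 EILP-only) against ILCP-only regions. Here the quintiles were taken within each stage's own list, so peaks of a stratum matched in rank and not in the values themselves.

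**Figure D4:**
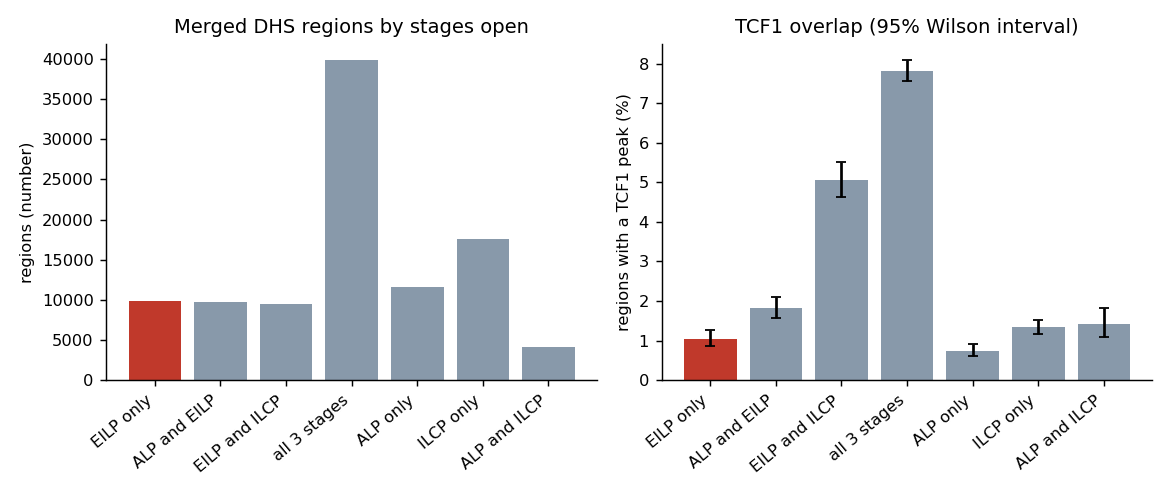
Number of merged regions (left, y axis) and share with a TCF1 peak (right, y axis, percent, with 95% Wilson intervals) for the 7 patterns of stages in which a region was open, with EILP-only regions in red. EILP-only regions number 9871 with a TCF1 share of 1.04%, and the share is highest, 7.82%, for regions open in all 3 stages.

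Among EILP-only regions the TCF1 share was not higher in the stronger ones, of which there were few. By quintile of fold enrichment over all EILP regions, from weakest to strongest, TCF1 peaks overlapped 64 of 5278 (1.21%), 22 of 2944 (0.747%), 15 of 1303 (1.15%), 2 of 329 (0.608%) and 0 of 17 EILP-only regions. The upper limit for 0 of 17 was 18.4%. In regions open at all stages the share went from 3.92% (3.27 to 4.70) in the weakest to 12.2% (11.6 to 12.7) in the strongest quintile, and in regions open at EILP and ILCP from 4.44% (3.74 to 5.25) to 9.96% (6.84 to 14.3). Within the weakest quintile, where most EILP-only regions lay, their share of 1.21% (0.951 to 1.55) was below that of both classes, and its interval overlapped that of regions open in ALP and EILP, 1.74% (1.32 to 2.29).

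The TCF1 share was higher where the local DNase background, the tag density around a region, was higher. Of the EILP-only regions at the floor of the list, 0.601 tags, 11 of 3082 overlapped a TCF1 peak (0.357%, 0.199 to 0.638). The share was 0.856% (0.501 to 1.46) at 0.8 to 1 tag, 1.87% (1.32 to 2.64) at 1 to 1.5 tags and 3.62% (2.17 to 5.98), or 14 of 387, over 2 tags. Along the 6 background classes, from the floor upwards, the median height of EILP-only regions was 7, 8, 8, 10, 11 and 14 tags, and their median fold enrichment was 5.00, 5.14, 4.92, 4.76, 4.53 and 4.30. The same order held in the other classes, from 0.667% at the floor to 5.28% over 2 tags in ALP and EILP, from 2.04% to 11.4% in EILP and ILCP, and from 0.742% to 19.7% in all stages. In the regions open at all stages fold enrichment and width were larger too, with medians of 7.50 and 213 bp at the floor and 9.21 and 371 bp over 2 tags. EILP-only regions were at the floor more often than the other EILP regions, 31.2% against 15.9%. Within strata of fold enrichment by background (n = 9871 EILP-only, added after the data were examined), the odds ratio of EILP-only regions was 0.256 (0.204 to 0.322) against EILP and ILCP, 0.375 (0.297 to 0.473) against all stages and 0.826 (0.630 to 1.08, p = 0.17 adjusted over 3 comparisons) against ALP and EILP.

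**Figure D5:**
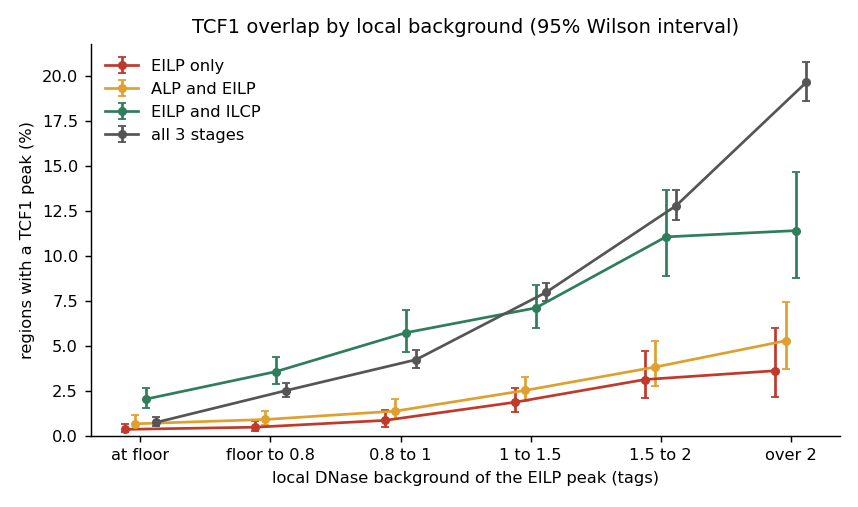
Share of regions with a TCF1 peak (y axis, percent, with 95% Wilson intervals) by the local DNase background of the EILP peak (x axis, tags) for EILP-only regions and the 3 other classes with an EILP peak. The EILP-only share goes from 0.357% at the floor to 3.62% over 2 tags, and lies below the share of regions open at EILP and ILCP in each of the 6 background classes.

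The TCF1 share also differed by position. Distance here is to the nearest DHS region of another class, so other EILP-only regions were not counted as neighbours. Of the 2879 EILP-only regions within 1 kb of such a region, 59 overlapped a TCF1 peak (2.05%, 1.59 to 2.63), against 44 of the 6992 farther away (0.629%, 0.469 to 0.844). The odds ratio of near against far was 3.30 (2.23 to 4.89, p = 2.5e-09 by a two-sided exact test of Fisher). The comparison was added after the data were examined. It split the regions by a distance taken from the lists that defined them. No other class was split in this way, so whether the difference is particular to EILP-only regions was not tested. The median background was 1.02 tags in the near group and 0.66 tags in the far group, and within 6 classes of background the odds ratio was 1.80 (1.19 to 2.73, p = 0.0039, n = 9871). A TCF1 peak within 1 kb was found for 362 EILP-only regions (3.67%, 3.31 to 4.06), against 8.81% of all regions with an EILP peak.

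The TCF1 peaks at EILP-only regions were themselves low. All 103 regions held exactly 1, with 3 to 9 tags and a median of 5, and 75.7% had 5 tags or fewer, against a median of 6 tags and 43.8% with 5 or fewer for the 3909 TCF1 peaks in other EILP regions. Their median fold enrichment was 4.81, against 5.26. They made up 1.54% of the TCF1 list. The median distance between the TCF1 and DHS summits was 57 bp, and 77 of the 103 were within 100 bp. Per the file headers, the control of the TCF1 calls included the library number shared by the 2 libraries in no group, and its part in these values was not tested.

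The EILP-only regions with TCF1 differed from the rest in their surroundings more than in strength. Their median background was 1.28 tags, against 0.74 in those without TCF1, their median height 10 against 8 tags, and their median fold enrichment 4.76 against 5.00. The nearest DHS region of another class lay a median of 687 bp away, against 3126 bp.

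By DHS fold enrichment, the first of the 103 was chr11:11436376-11436648, with 14 DNase tags, a fold enrichment of 8.72 and a TCF1 peak of 4 tags whose summit was 33 bp from the DHS summit. The second was chr11:97197648-97197803, with 12 DNase tags, a fold enrichment of 8.12 and a TCF1 peak of 3 tags, the lowest height in the TCF1 list. The third, chr4:114336722-114337137, had 16 DNase tags, a fold enrichment of 7.62 and a TCF1 peak of 5 tags with summits 10 bp apart. TCF1 heights this low leave wide counting error on any single site.

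Among these 10, the TCF1 and DHS summits were also close together at chr5:35013028-35013151, with 11 DNase tags and a TCF1 peak of 5 tags 5 bp away, and at chr2:167732336-167732503, with 12 DNase tags and a TCF1 peak of 8 tags 11 bp away. The chromosome 2 region had the highest TCF1 fold enrichment of these 10, 7.97, lay 11.4 kb from the nearest ALP peak and belongs to the 1 Mb window with the most EILP-only regions. At chr5:25240304-25240425 a peak of 10 DNase tags on the floor background carried a TCF1 peak of 5 tags, and the nearest DHS region of another class was 25.2 kb away. The other 4 of the first 10 were chr16:31582411-31582668, chr1:137611732-137612097, chr8:97446648-97446873 and chr8:121946002-121946306, with TCF1 heights of 4, 4, 5 and 7 tags and summit distances of 162, 157, 40 and 155 bp. The 10 thus ranged from a site 25.2 kb from any DHS of another class to the chromosome 1 site, 0.394 kb from a region open in all stages.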

How the data were processed

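The authors sequenced DNase-seq libraries of EILP, ALP and ILCP and CUT&RUN libraries of EILP and deposited 1 peak list per stage and 1 for TCF1. Per the file headers, MACS 2.1.1.20160309 called the peaks on pooled tags. The q-value cutoff was 0.05, tags were 50 bp long, 1 tag was kept per position and fragments were set to 100 bp. For DNase-seq, tags were shifted by 50 bp, without a control and with a background window of 10 kb. For TCF1 the control was a pooled IgG file and the windows were 1 and 10 kb, per the file headers. Per the submitters' processing notes the reads were placed on mm9. The aligner is not given in the sources used here. The deposited pileup signal is the unscaled number of fragments at the summit. The fold enrichment in the files is the authors' ratio of pileup plus 1 to background plus 1, from which the background was worked out. Its lowest value, 0.601 tags in EILP, equals the tags per 100 bp over the genome size in the header. The deposited −log10 q-value was used for thresholds.

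Regions, overlaps and distances were computed in Python 3.11.15 with pandas 2.3.3. Fisher's exact tests used scipy 1.17.1, and stratified odds ratios are Mantel-Haenszel estimates from statsmodels 0.14.6. Intervals of odds ratios are 95% Woolf or Mantel-Haenszel intervals. The functions were tested on simulated lists. The named items are the first 10 EILP-only regions by fold enrichment, by height and by fold enrichment among those with TCF1, the first 5 windows of 1 Mb, and the 5, 5 and 3 regions nearest to each threshold. The members, lists and tests were chosen with earlier results of these data known. Peaks on Y and the mitochondrial genome were left out. Tests near gene starts and of motifs were not run, since no sequence or annotation of mm9 was used.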

Additional observations from a re-analysis of the deposited data

Results flagged for a closer look

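The merge left out the Y chromosome and the mitochondrial genome. Outside the chromosomes used, 7 further regions had an EILP peak and no ALP or ILCP peak, and they were set apart because they lie outside the main merge. They were 14.9% (95% Wilson interval 7.41 to 27.7) of the 47 regions with an EILP peak there, against 14.3% on chromosomes 1 to 19 and X, which lies within that interval. All 7 were on Y, with 6 to 30 tags (median 17) and fold enrichments of 2.60 to 6.87. The sex of the mice was not given in the sources used here, and these regions enter no comparison.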

How the results depend on the processing

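No paired analysis was possible because each peak list pools its libraries, and for the same reason no library could be left out. The number of EILP-only regions was between 7002 and 10839 under other overlap rules, distances, a q-value of 0.01 in place of 0.05, equal list lengths and autosomes alone, against 9871, and dropped to 3963 with EILP peaks at −log10 q of at least 5, which removes weak peaks by construction. Over the alternatives the TCF1 odds ratio of EILP-only regions was 0.0905 to 0.375 against regions open at all stages and 0.153 to 0.434 against EILP and ILCP, and all 8 alternatives of each kept their call. Against ALP and EILP it was 0.431 to 0.826, and the call was lost in strata of fold enrichment by length (0.759) and by background (0.826). Against ALP-only regions the call was lost with absence meaning no peak within 500 bp (1.24), with equal list lengths (1.26) and with TCF1 within 1 kb (1.10). Against ILCP-only regions it was lost with TCF1 summits within 200 bp of the DHS summit (0.829), TCF1 peaks at −log10 q of at least 2 (0.809), TCF1 within 1 kb (0.938) and strata (0.891). The cause was not tested. No odds ratio changed direction. The strata by background and TCF1 within 1 kb were chosen after seeing the data. Depth limits absence: the lowest recorded height was 3 tags for a TCF1 peak and 5 for a DHS, and for DHS it was higher where the background was higher.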

Other observations

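Some EILP-only regions lay far from DHS of the other classes, and 106 (1.07%) had no region of another class within 100 kb. Distances from one EILP-only region to the next were not computed. The most isolated by this distance were chosen after their values were seen. For chr6:78494312-78494474, with 7 tags and a fold enrichment of 5.00, the nearest region of another class was 910.04 kb away. The distance was 876 kb for chr11:91435945-91436107, with 10 tags and a fold enrichment of 6.87. It was 764 kb for chr14:107732734-107732833, with 6 tags and a fold enrichment of 4.37. In each case that nearest region was open in ILCP alone, and each of the isolated regions sat on the background floor.

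By chromosome, the EILP-only share of EILP regions ran from 12.6% (11.7 to 13.6) on chromosome 7 to 17.5% (15.5 to 19.7) on X, with 14.3% on the autosomes together. The X share was also the higher one for ALP-only regions, 19.5% on X and 17.7% on autosomes, and for ILCP-only regions, 27.2% on X and 24.7% on autosomes. EILP peaks on X had a median height of 11 tags, against 13 on autosomes, and close median fold enrichments of 6.87 and 6.90. Whether the lower height accounts for the share was not tested.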
